A study of Homo sapiens with 6 samples.

Results

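BET proteins and the regulators of P-TEFb were taken as 9 genes fixed by name: BRD2, BRD3, CDK9, CCNT1, CCNT2, HEXIM1, LARP7, MEPCE and AFF4. They were looked up, among 19220 autosomal coding genes of the annotation, in lists of N-Myc-bound, JMJD6-bound and jointly bound regions, which cover gene promoters, typical enhancers and clustered enhancers (super-enhancers). A gene with no entry counts as not listed. The lists come from chromatin immunoprecipitation sequencing (ChIP-seq) in CHP-134, a single established human neuroblastoma cell line that overexpresses N-Myc, for which the labels give no treatment other than cross-linking. There were 6 samples, 3 with an N-Myc antibody after formaldehyde cross-linking and 3 with a JMJD6 antibody after disuccinimidyl glutarate and then formaldehyde. The antibody and the cross-linking therefore cannot be told apart. The lists hold positions only, of common peaks found in all 3 replicates and of regions listed as bound. A listed region need not hold a common peak, as described below for LARP7. There was no value per sample, so neither peak height nor a spread between replicates could be given, and no test was run.

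Pausing of RNA polymerase II shortly after initiation is a control point of transcription. P-TEFb, a kinase made of CDK9 and a cyclin T, phosphorylates the polymerase and pausing factors so that elongation can proceed. Most P-TEFb is held inactive by the 7SK particle, in which HEXIM1 inhibits the kinase, LARP7 protects the 7SK RNA and MEPCE caps it. BET proteins bind acetylated histones through their bromodomains and help to bring active P-TEFb to genes, and AFF4 is a scaffold of the super elongation complex. Myc proteins bind the canonical E-box, CACGTG, as dimers with MAX.

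N-Myc was listed at the promoters of 5 of the 9 genes: the BET gene BRD2, both cyclin T genes CCNT1 and CCNT2, and the 7SK particle genes HEXIM1 and MEPCE. It was not listed at the promoters of BRD3, the kinase gene CDK9, LARP7 or AFF4. Of the autosomal coding genes, 18.3% (3526) were in the same promoter list (exact binomial 95% confidence interval 17.8 to 18.9%). The 9 genes were chosen with earlier results of these data known, so their counts beside such shares are descriptive only. JMJD6 was listed at no promoter, typical enhancer or super-enhancer of the 9 genes. The share of coding genes with any JMJD6-bound region was 1.33%, and the share with a region bound by both proteins was 0.822%, so 9 genes are too few to show a difference from that background. The 9 genes had 17 entries in the N-Myc lists, made up of 8 promoters, 7 typical enhancers and 2 super-enhancers. In all, 6 of the 9 genes had an N-Myc-bound region of some class, against 38.1% of coding genes, and BRD3, CDK9 and AFF4 had no entry in any list.

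The E-boxes printed here are those that lay within N-Myc promoter peaks of these genes, since they show the sequence under the peaks. They were read from GRCh37, with the motif CACGTG in capitals and 12 bases on each side, 5′ to 3′ on the strand of the gene. The BRD2 sites lie at chr6:32937392-32937421 and chr6:32937443-32937472 (plus strand, annotated as untranslated region of alternative transcripts). The CCNT1 site lies at chr12:49110707-49110736 (minus strand, untranslated region), and the MEPCE site at chr7:100026934-100026963 (plus strand, intron).
BRD2 site 1: tttgtgtgcattCACGTGgacacggcctgt
BRD2 site 2: gtctttactgagCACGTGtctactccaggc
CCNT1: ccgcccaacggtCACGTGacgcgcctgcgt
MEPCE: cgccagtttcagCACGTGctgcctctaccc

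The AFF4 site is shown for contrast, because AFF4 carried the same hexamer beside its start site with no N-Myc peak. It lies at chr5:132299363-132299392 (minus strand), 51 bp upstream of the annotated 5′ end and outside any annotated gene.
AFF4: gcgcagaggcatCACGTGacgccccgcacc

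**Figure D1:**
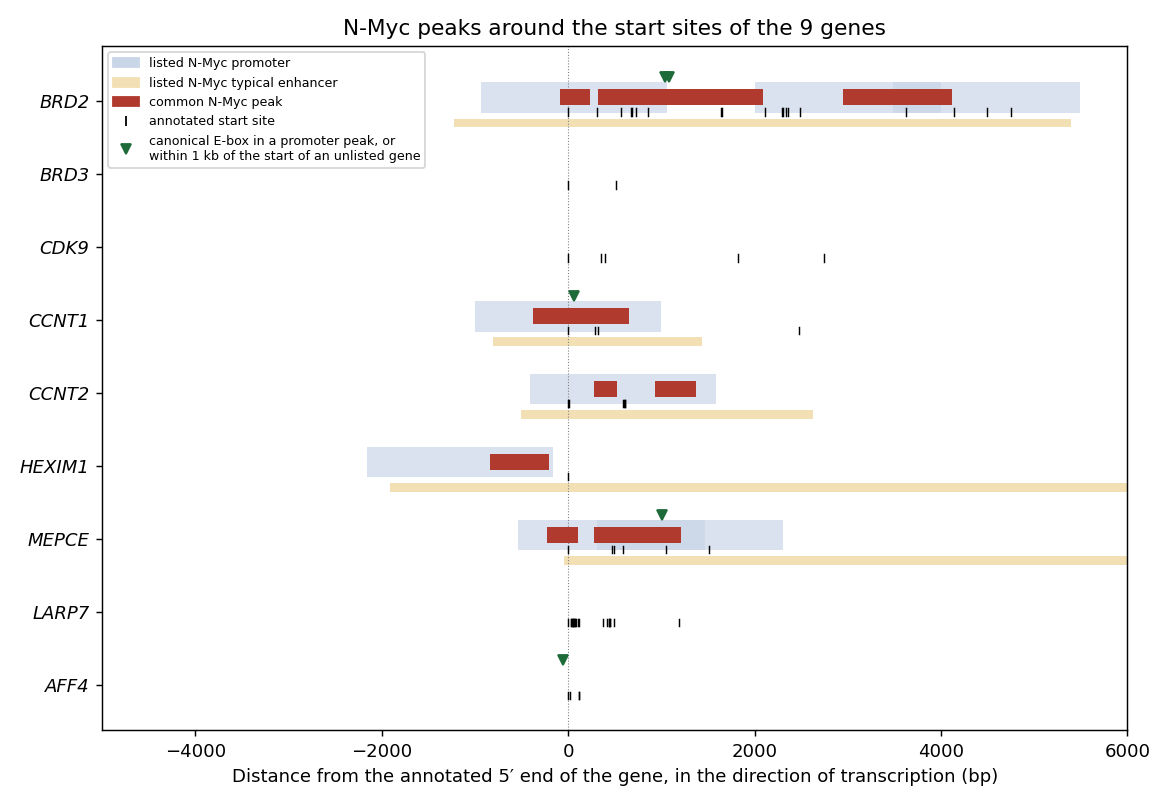
Positions of N-Myc peaks (red), listed N-Myc promoters (blue), typical enhancers (yellow), annotated start sites (black ticks) and canonical E-boxes (green) around the 5′ end of each gene, in bp. BRD2 has 3 peaks, CCNT2 and MEPCE have 2 each, CCNT1 and HEXIM1 have 1 each, and BRD3, CDK9, LARP7 and AFF4 have none.

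BRD2 (chromosome 6, 32936371 to 32949282, plus strand) had the most N-Myc promoter peaks of the 9 genes. Its 3 listed promoters, which are alternative start sites, held 3 common N-Myc peaks. The first, of 318 bp (32936287 to 32936604), covered the annotated 5′ end of the gene. The second, of 1769 bp (32936697 to 32938465), covered 7 further annotated start sites and held both E-boxes printed above. The third, of 1170 bp (32939316 to 32940485), overlapped coding and untranslated exons 3529 bp downstream of the 5′ end at its midpoint. It held no CACGTG and 2 sites of the variant CACGCG, counted on both strands.

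The second BRD2 peak ranked 7 in width among the 3550 N-Myc peaks that overlapped a listed promoter. Summed over its promoters, the peaks of BRD2 covered 3257 bp, the largest sum among the 4052 genes with a peak in a listed promoter, where the next largest was 2662 bp and the median 498 bp. Only 27 of those genes (0.666%) had 3 or more promoter peaks. Among the 163 genes that, like BRD2, had 3 or more listed promoters, 6 (3.68%) had 3 or more peaks and the median sum was 624 bp, both above the values over all 4052 genes. The part of the number of listed promoters in the width at BRD2 was not tested. BRD2 lies in the major histocompatibility complex beside HLA-DMA, some of whose annotated transcripts overlap the first and second peaks.

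BRD3 (chromosome 9, 136895427 to 136933657, minus strand), the other BET gene examined, had no N-Myc peak within the gene. The nearest N-Myc peak, of 290 bp, lay 96.2 kb upstream of its 5′ end outside any annotated gene. Among coding genes the median distance to an N-Myc peak was 54.6 kb, so BRD3 was farther from N-Myc than the median gene. No CACGTG lay within 1 kb of its 5′ end.

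The kinase and its cyclins differed in their listing. CDK9 (chromosome 9, 130547958 to 130553071, plus strand), the catalytic subunit, had no N-Myc peak in the gene and no CACGTG within 1 kb of its 5′ end. Its nearest N-Myc peak lay 50.8 kb upstream, over a coding exon of TOR2A, a distance close to the median of coding genes. CCNT1 (chromosome 12, 49082241 to 49110781, minus strand), which encodes cyclin T1, had a single peak of 1024 bp (49110130 to 49111153) that covered 3 annotated start sites, the 5′ end of the gene among them. Its width stood at the 96.3 percentile of promoter peaks. Its E-box lay 60 bp downstream of the 5′ end and 80 bp from the peak midpoint, the closest to a midpoint among these genes.

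CCNT2 (chromosome 2, 135675805 to 135716912, plus strand), which encodes cyclin T2, had 2 narrower peaks, of 243 bp (135676086 to 135676328) and 437 bp (135676741 to 135677177). Neither covered an annotated start site, although the first lay 64 bp from one. The first peak had 111 CpG dinucleotides per kb, a density at the 99.2 percentile of promoter peaks, against a median of 59.7 per kb. It held no CANNTG of any kind, and the second peak held a single CACGCG site and no CACGTG. Both peaks were shared with the listed promoter of CCNT2-AS1, an antisense transcript that starts in the opposite direction, so the peaks cannot be assigned to either gene alone.

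The 3 protein genes of the 7SK particle were not listed alike. HEXIM1 (chromosome 17, 43225842 to 43229466, plus strand), which encodes the P-TEFb inhibitor, had a peak of 631 bp (43225008 to 43225638) that ended 204 bp upstream of the annotated start. The promoter listed for HEXIM1 was centered 1159 bp upstream of that start, so its start site differs from the annotation used here. Against that listed start site the peak lies downstream. It overlapped an exon of another annotated gene. The peak held no CACGTG and 2 CANNTG sites. MEPCE (chromosome 7, 100025945 to 100031749, plus strand), the 7SK capping enzyme, had a peak of 336 bp (100025716 to 100026051) over its 5′ end and a wider peak of 935 bp (100026221 to 100027155) that covered 4 more start sites. The E-box of MEPCE lay in the wider peak, 1003 bp downstream of the 5′ end and 260 bp from the peak midpoint. Both MEPCE peaks also fell in the listed promoter of ZCWPW1, a histone reader gene on the opposite strand. As at CCNT2, the peaks cannot be assigned to either gene alone.

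LARP7 (chromosome 4, 113558233 to 113578852, plus strand), which encodes the protein that stabilizes 7SK RNA, had no promoter entry and no N-Myc peak in the gene. Its nearest N-Myc peak lay 122 kb upstream, over NEUROG2, and none of the 28 annotated LARP7 start sites had a closer one. LARP7 was nevertheless listed beside 2 typical enhancers and 2 super-enhancers, the only super-enhancers assigned to any of the 9 genes. Of the autosomal coding genes, 1.36% were assigned an N-Myc-bound super-enhancer. These 4 regions were assigned by distance, each to LARP7 and ANK2 as the neighboring genes, with listed distances to LARP7 of 186660, 242463, 314164 and 369074 bp.

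All 4 regions overlapped ANK2 (chromosome 4, 113739188 to 114305377), the gene of the cytoskeletal adaptor ankyrin-2, as annotated here. The typical enhancer nearest to LARP7 (113738263 to 113751622) contained the annotated 5′ end of ANK2, and its 550 bp peak (113739047 to 113739596) had its midpoint 7 bp from an ANK2 start site. The list places this region 225890 bp upstream of ANK2, so it counts from a start site farther downstream. The super-enhancer from 113774640 to 113826851 held 2 intronic peaks of 415 and 380 bp. The other super-enhancer (113847473 to 113897419) and the other typical enhancer (113919687 to 113935025) held no common N-Myc peak, although both are listed as N-Myc-bound. None of the 4 peaks in these regions held CACGTG. The listing of LARP7 with super-enhancers thus rests on the assignment of regions that overlap ANK2.

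**Figure D2:**
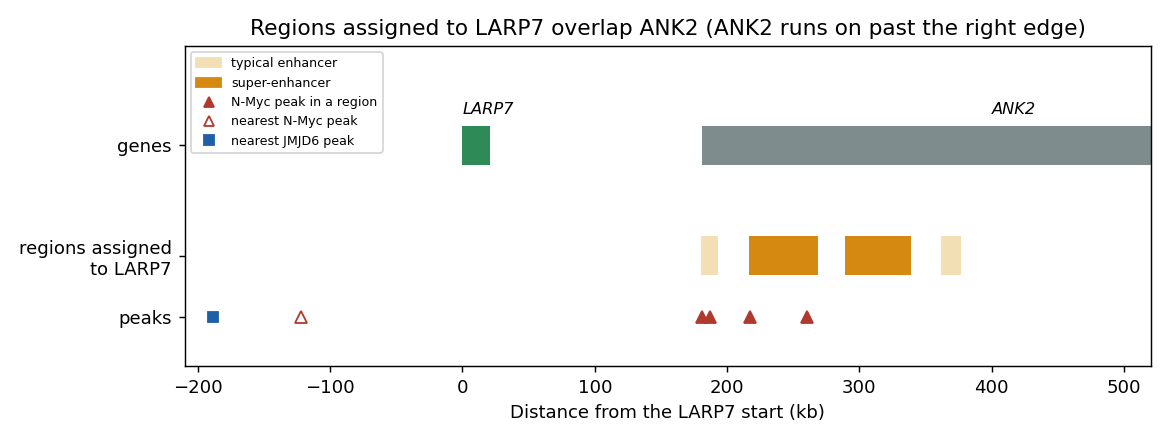
Position, in kb from the LARP7 start, of LARP7 and ANK2 (top), the 2 typical enhancers and 2 super-enhancers assigned to LARP7 (middle), and the N-Myc peaks within them with the nearest N-Myc peak (open triangle) and JMJD6 peak (square) outside them (bottom). The regions begin 180.03 kb from the LARP7 start and all overlap ANK2, and the nearest N-Myc peak on the other side lies 122 kb away.

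AFF4 (chromosome 5, 132211087 to 132299326, minus strand), the scaffold of the super elongation complex, had no entry and no N-Myc peak in the gene. The nearest N-Myc peak, of 767 bp, lay 87.6 kb upstream over the untranslated region of HSPA4. AFF4 was the only member of the 4 genes without an N-Myc promoter that had a CACGTG within 1 kb of its 5′ end. Of all coding genes outside the N-Myc promoter list 25.2% had such an E-box, against 44.5% of the 3526 in the list, so the hexamer beside a start site was common without a listed peak.

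Across the 5 genes with N-Myc promoter peaks there were 9 peaks, from 243 to 1769 bp wide with a median of 631 bp. The median over all 3550 promoter peaks was 452 bp. Peaks of at least 1000 bp made up 4.06% of promoter peaks, and 3 of the 9 peaks reached that width, 2 at BRD2 and 1 at CCNT1. Width is not height, and it was not known how the common interval of the 3 replicates was set.

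**Figure D3:**
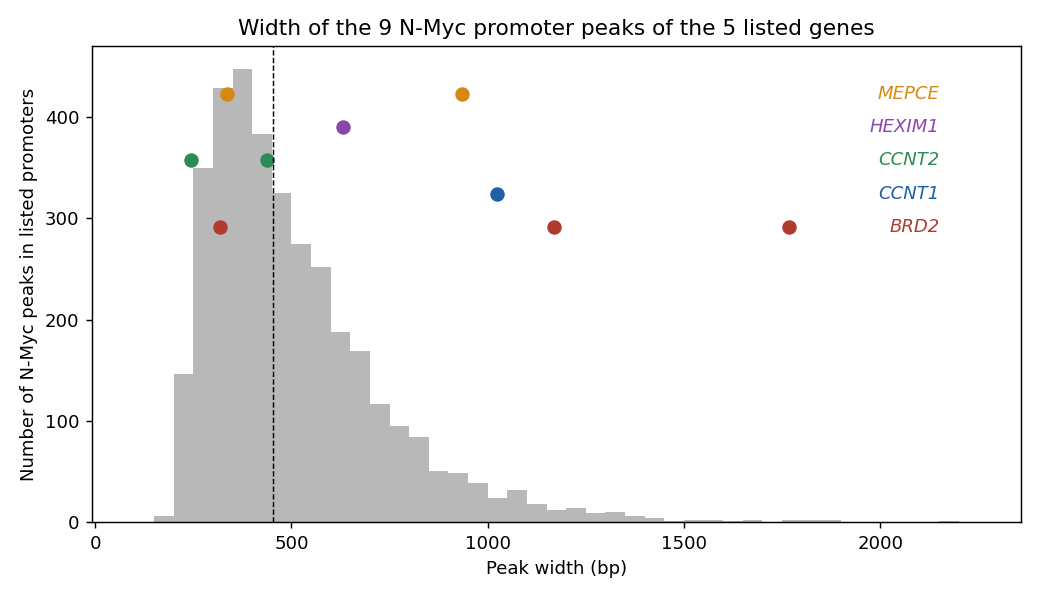
Histogram of the width in bp of 3550 N-Myc peaks in listed promoters, with the 9 peaks of BRD2, CCNT1, CCNT2, HEXIM1 and MEPCE as points at heights chosen only to separate the genes, and the median of 452 bp as a dashed line. The widest peak of BRD2 (1769 bp) lies in the far tail, and both CCNT2 peaks lie below the median.

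CACGTG occurred in promoter peaks of BRD2, CCNT1 and MEPCE, or 3 of the 5 genes, and not in those of CCNT2 or HEXIM1. Of 4052 genes with a peak in a listed promoter, 39.1% had at least 1 such E-box in a peak. Per length of peak the members held fewer, with 4 E-boxes in 6863 bp or 0.583 per kb, against 0.878 per kb over all promoter peaks. These 5 genes and 4 E-boxes are too few to show a difference from either of those values. Wider peaks give more room for a match, and no E-box except that of CCNT1 lay within 100 bp of its peak midpoint.

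Typical enhancers were assigned to 6 of the 9 genes, against 32.7% of coding genes. At BRD2, CCNT1, CCNT2, HEXIM1 and MEPCE the enhancer overlapped the listed promoter of the gene itself, and it held the same 9 peaks and no others. Lengths ran from 2245 bp at CCNT1 to 15719 bp at HEXIM1. How often typical enhancers overlap a listed promoter over all coding genes was not counted, so the overlap cannot be called particular to these genes. The HEXIM1 enhancer spanned the locus it shares with its paralog HEXIM2, to which it was also assigned, and its only N-Myc peak was the HEXIM1 promoter peak. The sixth gene was LARP7, with the regions that overlap ANK2. The enhancer entries therefore added no N-Myc peak near any of the 9 genes to those at the promoters.

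JMJD6 was listed at none of the 9 genes, and 7 of them lay nearer to a JMJD6 peak than the median coding gene, whose distance was 2376 kb. A median divides the coding genes evenly, and 9 genes are too few to show a difference from such a split. BRD2 was closest, with a JMJD6 peak of 596 bp (32920816 to 32921411) 15.0 kb upstream of its 5′ end, in the untranslated region of HLA-DMA. A JMJD6 peak lay within 20 kb of 1.68% of coding genes, but BRD2 was singled out here as the closest of 9. No N-Myc peak overlapped that JMJD6 peak, and it was not listed for BRD2. The next was HEXIM1, with a JMJD6 peak 86.8 kb upstream over NMT1 and DCAKD, which was shared with N-Myc. These 2 genes lay within 100 kb of a JMJD6 peak, as did 5.6% of coding genes. For CCNT2, LARP7, MEPCE and CCNT1 the nearest JMJD6 peak lay 154, 188, 375 and 472 kb away, at the 8.09, 9.64, 16.2 and 19.0 percentiles of distance among coding genes. For AFF4, BRD3 and CDK9 it lay 1960, 2833 and 9219 kb away, at the 45.8, 54.3 and 83.2 percentiles. None of the 9 N-Myc promoter peaks overlapped a JMJD6 peak. Over the whole genome there were 10172 common N-Myc peaks, 561 common JMJD6 peaks and 241 shared peaks. With so few shared peaks, 9 peaks are too few to show a difference from that background.

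**Figure D4:**
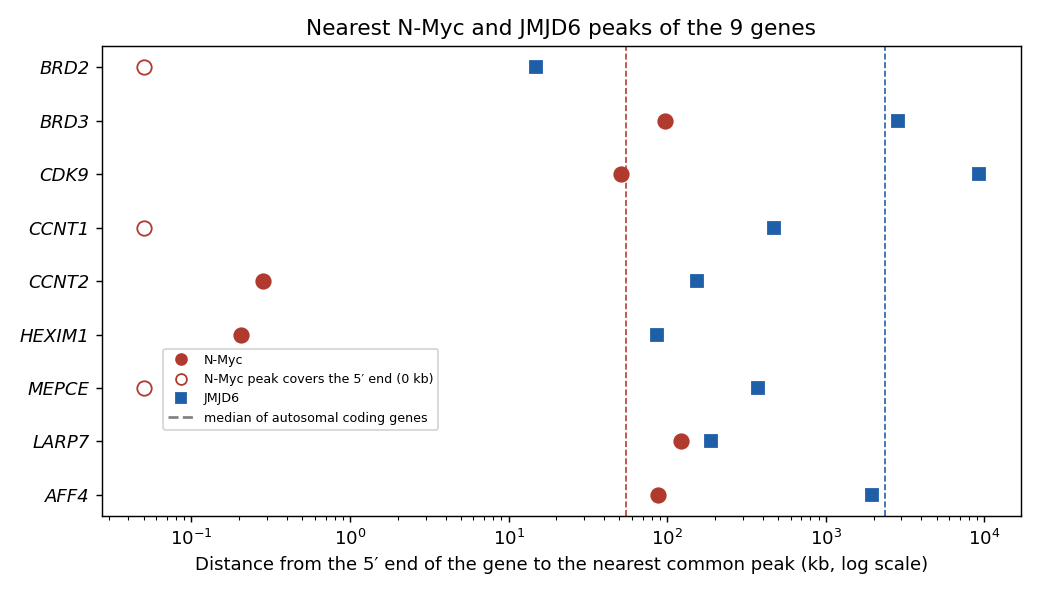
Distance in kb on a log scale from the 5′ end of each gene to the nearest N-Myc peak (circles) and JMJD6 peak (squares), with the medians over autosomal coding genes as dashed lines of the same color. Open circles, drawn at the left, stand for a peak that covers the 5′ end (BRD2, CCNT1, MEPCE), and BRD2 has the nearest JMJD6 peak at 15.0 kb.

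Other genes of the elongation pathway were counted in the same lists. Of 38 such genes, 11 (28.9%) had an N-Myc-bound promoter and 17 (44.7%) an N-Myc-bound typical enhancer, and none had a super-enhancer. The 38 include RN7SK, which is not coding, and AFF2 on chromosome X, both outside the autosomal coding genes. Among 9 subunits of other transcription kinases 5 were listed at promoters, namely CDK8, CDK19 and CCNC of the Mediator kinase module, CDK12, which phosphorylates elongating polymerase, and MNAT1, an assembly factor of the CDK7 kinase. CDK7, CDK13 and CCNK had no entry. In the PAF1 complex and other elongation factors 3 of 10 were listed, LEO1, RTF1 and the histone chaperone subunit SUPT16H. In the super elongation complex 2 of 10 were listed, the elongation factor ELL and its partner EAF1. Of 6 pausing factors only SUPT5H was, and no gene of the NELF complex had a listed promoter. The testis-specific BET gene BRDT, HEXIM2 and the 7SK RNA gene RN7SK had none either.

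These 11 genes had 14 listed promoters and 1 N-Myc promoter peak each, from 292 bp at CDK8 to 873 bp at CDK19, with a median of 438 bp. The peaks of SUPT5H and RTF1 lay 9377 and 8393 bp downstream of the annotated 5′ end, in promoters listed for other start sites. The widest peaks of BRD2, CCNT1 and MEPCE were wider than all 11. CACGTG lay in the peaks of 4 of the 11 genes, ELL, CDK8, RTF1 and SUPT16H. The only JMJD6 entry in the pathway was a typical enhancer in an intron of AFF3, a relative of AFF4, at chromosome 2 from 100496832 to 100497240, and it held no N-Myc peak.

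**Figure D5:**
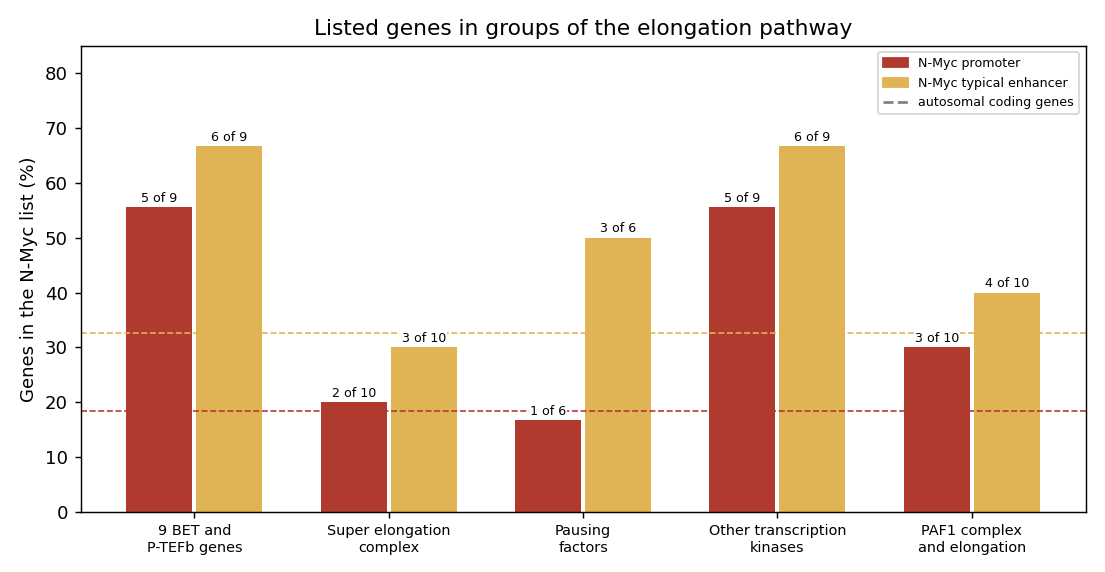
Percentage of genes in the N-Myc promoter list (red) and the N-Myc typical enhancer list (yellow) for the 9 BET and P-TEFb genes and 4 other groups of the pathway, with the number of genes above each bar and the shares over autosomal coding genes (18.3% and 32.7%) as dashed lines. The 9 genes and the other transcription kinases both have 5 of 9 promoters and 6 of 9 typical enhancers listed. The super elongation complex includes AFF2, which is outside the autosomal coding genes.

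The same lists were read for 10 genes of the sympathetic neuroblastoma lineage. N-Myc-bound regions of any class were assigned to 9 of them, against 38.1% of coding genes, but only GATA2 had an N-Myc-bound promoter, or 1 of 10 against 18.3%. DBH, the gene of dopamine beta-hydroxylase, had no entry. The lists hold no expression values and assign enhancers to genes by distance, so they cannot verify the labelled cell type.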

How the data were processed

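ChIP-seq samples of CHP-134 cells were grouped by antibody (3 N-Myc, 3 JMJD6). BWA, SAMtools and bedtools are named in the submitters' processing notes, and the authors called peaks against input with MACS2 (version 2.1.1.20160309). Promoters were 1 kb on each side of RefSeq start sites. Enhancers were defined by ROSE from H3K27ac peaks, and their nearest genes were assigned with GREAT. The paper's methods state that H3K27ac peaks within 1 kb of start sites were subtracted. The listed typical enhancers of BRD2, CCNT1, CCNT2, HEXIM1 and MEPCE nevertheless overlapped their listed promoters, and the reason was not tested. The deposited values in the 12 lists are positions in bp on hg19, with no score, count or coverage. The study's methods give only a minimum read number for its samples, and the reads behind each peak cannot be read from the lists.

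Gene symbols were matched to GENCODE version 44 on GRCh37, older symbols through the RefSeq gene table (3958 of 4150 symbols of the N-Myc promoter list matched). Of 4914 promoters with a matched symbol, 87.6% were centered within 100 bp of a start site of that gene. Overlap means at least 1 bp. Distances run from the annotated 5′ end of the gene. Matches to CANNTG include those to CACGTG. Each motif was counted on both strands, and intervals cover counting error only. The overlap, distance and motif steps were tested on simulated data. Python 3.11.15, pysam 0.24.0, SciPy 1.17.1 and matplotlib 3.10.9 were used. All 9 members were named whatever their values, with the genes that share a peak or region with them and the listed genes of the pathway. The members, lists and alternatives were chosen with earlier results of these data known.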

Additional observations from a re-analysis of the deposited data

How the results depend on the processing

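The count of 5 genes with an N-Myc promoter was 5 for the same genes when a peak had to overlap the listed promoter. That rule nearly repeats how promoters entered the list, so its outcome was largely fixed in advance. The count was also 5 when the peak midpoint had to lie inside the listed promoter. It was 5 with peaks within 500 bp or 2 kb of annotated start sites, where the shares of coding genes were 19.7% and 23%. It was again 5 when peaks narrower than the median of all N-Myc peaks (418 bp, not the 452 bp of promoter peaks) were left out. Leaving out chromosome 6 between 26 and 34 Mb removed BRD2 and gave 4 of 8. Without enhancers that overlap a listed promoter, typical enhancers were left at 1 gene, LARP7, in place of 6. The share of all coding genes under that rule was not counted. Assigning each region to the nearer gene only gave 5 genes with typical enhancers, without HEXIM1, and 0 with super-enhancers in place of 1. Shares of coding genes were also not counted for the nearer gene only, the midpoint rule, the width rule or without the chromosome 6 segment. The JMJD6 count was 0 with the nearer gene only and with any JMJD6 peak within 10 kb of a start site. Of the coding genes, 1.38% had a JMJD6 peak within that distance. The members are too few for a count of 0 to show a difference from that share. The count of genes with an E-box in a promoter peak was 3, and was 4 with CACGCG added, 5 with any CANNTG and 1, CCNT1, within 100 bp of the peak midpoint. Counted per peak and not per gene, the share of all promoter peaks with an E-box was 36.9%, and it was 56.9% and 87.1% with those motifs. Per gene, the share with CACGTG in a promoter peak was 39.1%. Per-gene shares for the other motifs, and any share for the midpoint window, were not counted. Over all annotated genes in place of coding genes the share with an N-Myc promoter was 6.68%, with more genes in the denominator. No paired analysis was possible because the lists hold no value per sample, and for the same reason no replicate could be left out.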
